A study of Penicillium oxalicum with 12 samples.

Results

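Amy13A, Amy15A and AmyR are 2 amylase genes and the gene of their activator in the filamentous fungus Penicillium oxalicum, measured here by RNA-seq in 4 strains and 12 libraries. The 3 genes were taken by locus tag, with no threshold on their values, although earlier results of these data were known when they were chosen. They are PDE_01201 (the alpha-amylase Amy13A), PDE_09417 (the glucoamylase Amy15A) and PDE_03964 (the activator AmyR), out of 9979 genes in the deposited table. All 3 of 3 passed the filter on low values, with 9125 genes passing in all. The table gives locus tags without gene names or sequence, so these identities were not checked against it.

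Starch is a glucose polymer that fungi break down outside the cell. An alpha-amylase cuts the bonds inside the chain, and a glucoamylase releases single glucose units from the chain ends. AmyR is a zinc cluster transcription factor that activates amylase genes in Aspergillus and Penicillium. In P. oxalicum it is also known as a negative regulator of cellulase genes.

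Each strain was sequenced as 3 libraries, which the series describes as biological triplicates. gCXC is a mutant that expresses a chimeric transcription factor named CXC, gXlnRC expresses the variant A871V of XlnR, gAraRC expresses the variant A731V of AraR, and WT is wild type 114-2, the control. XlnR activates xylanase genes in other filamentous fungi, and AraR controls the use of arabinose there. The labels do not give the makeup of CXC, the promoters that drive the introduced factors, the number of clones or the parent of each mutant, and the engineered factors themselves were not examined. All 4 strains grew for 24 h in Vogel's medium with 2% glucose and then for 4 h in the same medium without a carbon source, at 30 °C and 200 rpm, and neither medium is said to hold starch.

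Levels are the deposited FPKM, in which fragment numbers are divided by the length of the gene and the size of the library. Library totals inferred from the steps between FPKM values ranged from 14549534 to 20092361 reads counted in genes. The inferred coding lengths of the 3 genes were alike, at 1881 nt for Amy13A, 1908 nt for Amy15A and 1842 nt for AmyR, against a median of 1161 nt over the tested genes. The lowest read number behind any value of the 3 genes was 129, for Amy13A in gAraRC replicate 1, and the highest was 22195, for Amy15A in WT replicate 2. Changes were tested with limma on log2(FPKM + 1) over all tested genes, and a gene was called at a Benjamini-Hochberg adjusted p below 0.05. Log2 changes below are on that scale.

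The activator gene AmyR was lower in all 3 engineered strains than in WT. AmyR stood at 70.2, 65.6 and 75.6 FPKM in gCXC, 72.8, 52.7 and 67.1 FPKM in gXlnRC, 11.4, 14.4 and 14.4 FPKM in gAraRC, and 114, 158 and 153 FPKM in WT. Every library of every engineered strain lay below the lowest WT library. The gCXC and gXlnRC libraries overlapped each other, and the gAraRC libraries lay well below both. In bulk mycelium, fewer expressing cells and less RNA per cell cannot be told apart.

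The means of AmyR were 70.5 ± 5.0 FPKM in gCXC, 64.2 ± 10.4 in gXlnRC, 13.4 ± 1.74 in gAraRC and 141 ± 24.2 in WT (SD, n = 3 each). In gCXC this was 49.8% of the WT mean (log2 change -0.98 ± 0.14 SE, limma adjusted p = 1.32e-04). In gXlnRC it was 45.4% (log2 change -1.12 ± 0.14, limma adjusted p = 3.29e-05). The fall was deeper in gAraRC, to 9.46% of the WT mean (log2 change -3.30 ± 0.14, limma adjusted p = 9.77e-10).

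Amy15A, the glucoamylase gene, was the most abundant of the 3 in every library and also fell in all 3 engineered strains. It stood at 115, 100.5 and 136 FPKM in gCXC, 231, 176 and 205 FPKM in gXlnRC, 15.5, 26.0 and 36.6 FPKM in gAraRC, and 518, 598 and 679 FPKM in WT. The 4 groups did not overlap for this gene, with gAraRC lowest, then gCXC, then gXlnRC, and WT highest. The 3 gAraRC libraries differed most among themselves, with a coefficient of variation of 40.5%, against 13.4% to 15.3% in the other groups.

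Mean Amy15A was 117 ± 17.9 FPKM in gCXC, 204 ± 27.7 in gXlnRC, 26.0 ± 10.5 in gAraRC and 599 ± 80.4 in WT (SD, n = 3 each). The gCXC mean was 19.6% of the WT mean (log2 change -2.34 ± 0.24, limma adjusted p = 6.69e-06). The gXlnRC mean was 34.1% of it (log2 change -1.55 ± 0.24, limma adjusted p = 1.46e-04). The gAraRC mean was 4.35% of it (log2 change -4.54 ± 0.24, limma adjusted p = 4.43e-09).

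Amy13A, the alpha-amylase gene, fell in gCXC and gAraRC, and its change in gXlnRC did not pass the test. Its levels were 51.8, 45.7 and 53.1 FPKM in gCXC, 166, 158 and 179 FPKM in gXlnRC, 4.63, 5.63 and 6.83 FPKM in gAraRC, and 171, 196 and 229 FPKM in WT. The gXlnRC and WT ranges overlapped, since the highest gXlnRC library exceeded the lowest WT library. The gCXC libraries lay below both, and the gAraRC libraries lay far below all others.

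For Amy13A the group means were 50.2 ± 4.00 FPKM in gCXC, 167 ± 10.6 in gXlnRC, 5.70 ± 1.10 in gAraRC and 199 ± 29.3 in WT (SD, n = 3 each). The gCXC mean was 25.3% of the WT mean (log2 change -1.96 ± 0.12, limma adjusted p = 1.02e-07). The gAraRC mean was 2.87% of it (log2 change -4.90 ± 0.12, limma adjusted p = 2.54e-11). With a pseudocount of 5 in place of 1, the gAraRC value was -4.25. In gXlnRC the mean was 84.3% of that in WT (log2 change -0.24 ± 0.12, 95% interval -0.51 to 0.03, limma adjusted p = 0.124). The change was called lower in 2 of 21 alternatives, 1 of which left out WT replicate 1 (log2 change -0.34, limma adjusted p = 0.045) and 1 of which kept all 12 libraries. Over all alternatives the adjusted p ran from 0.044 to 0.661, and the log2 change from -0.34 to -0.07.

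**Figure D1:**
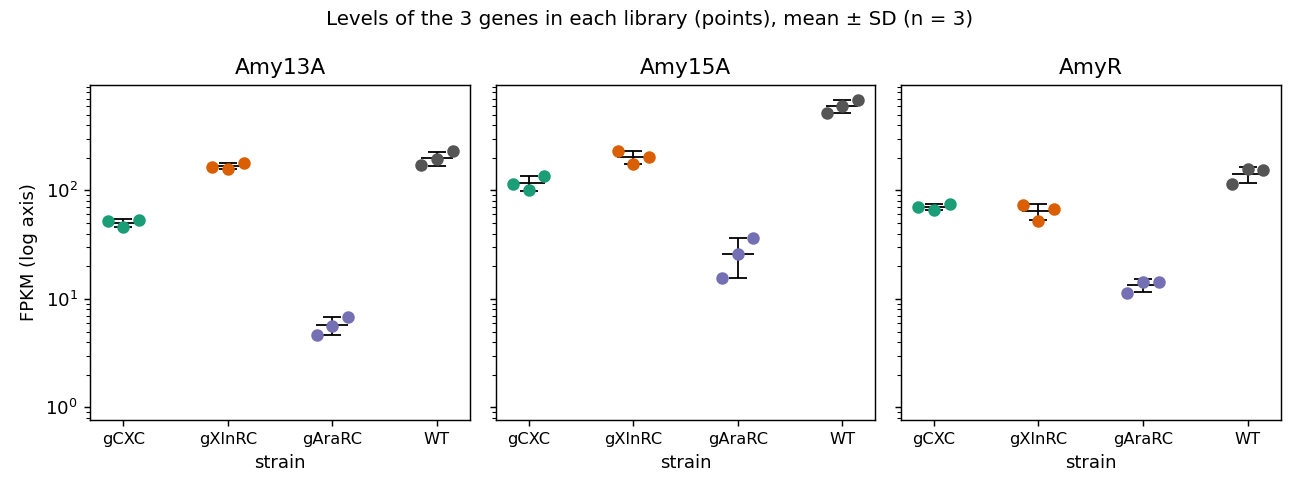
FPKM of Amy13A, Amy15A and AmyR on a log axis in gCXC, gXlnRC, gAraRC and WT. Points are the 3 libraries of a strain, bars the mean ± SD. The gAraRC libraries are the lowest for each gene (means of 5.70, 26.0 and 13.4 FPKM), and gXlnRC overlaps WT for Amy13A alone.

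Of the 3 genes, 3 were called lower and 0 higher in gCXC, where 26.5% of all tested genes were called lower and 23.8% higher. In gXlnRC, 2 were called lower and 0 higher, against 35.5% and 19.1% of all tested genes. In gAraRC, 3 were called lower and 0 higher, against 57.0% and 19.1% of all tested genes. These comparisons share the same WT libraries, so they are not independent of each other. The median log2 change of the 3 genes was -1.96 in gCXC, -1.12 in gXlnRC and -4.54 in gAraRC, against -0.0026, -0.10 and -0.34 over all tested genes.

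Both amylase genes were called at least 2-fold lower in gCXC, as were 5.06% of tested genes. Amy15A and AmyR were in gXlnRC, as were 5.68% of tested genes, and all 3 were in gAraRC, as were 15.3%. AmyR lay near this cutoff in gCXC (log2 change -0.98, with a mean FPKM at 49.8% of WT). It also lay near it in gXlnRC (-1.12, and -0.99 with quantile normalization). Ordered from the most negative log2 change among the 9125 tested genes in gAraRC, Amy13A was at position 2, Amy15A at position 4 and AmyR at position 34. In gCXC the positions were 108 for Amy13A, 63 for Amy15A and 481 for AmyR. In gXlnRC they were 3261, 177 and 402. Measured from the median gene of the comparison, the log2 changes in gAraRC were -4.57 for Amy13A, -4.21 for Amy15A and -2.96 for AmyR. In gXlnRC the same differences were -0.14, -1.45 and -1.02.

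The balance of calls over all genes depends on how the libraries are scaled. With median-of-ratios scaling, lower genes made up 51.1% of the calls in gAraRC against 74.9% as deposited, and 48.3% against 65.0% in gXlnRC. AmyR and Amy15A were called lower in all 3 strains, and Amy13A in gCXC and gAraRC, under each scaling tried.

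**Figure D2:**
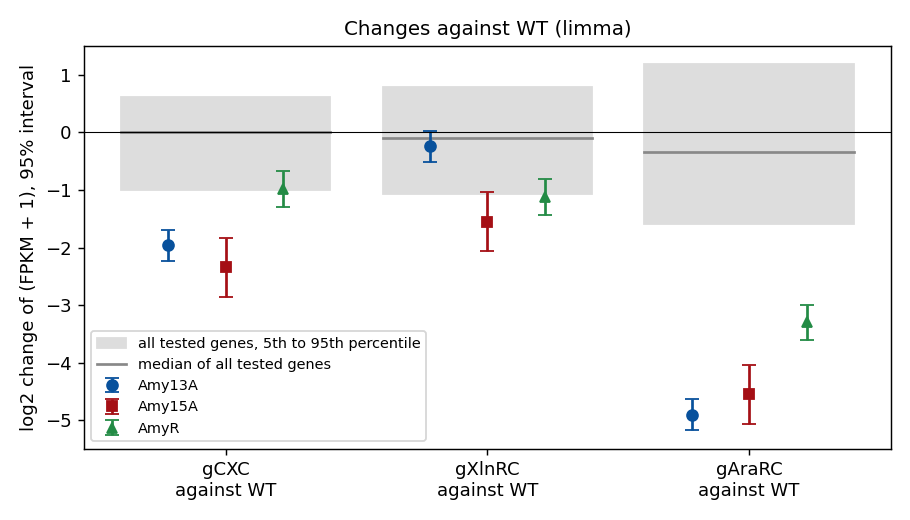
Log2 change against WT of Amy13A, Amy15A and AmyR in gCXC, gXlnRC and gAraRC, with 95% intervals from limma. Grey boxes span the 5th to the 95th percentile of all 9125 tested genes (-1.60 to 1.18 in gAraRC) and grey lines their median. The 3 genes lie below the box in gAraRC, while Amy13A in gXlnRC (-0.24) and AmyR in gCXC (-0.98, close to the lower edge) lie inside it.

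Direct comparisons between the engineered strains set gAraRC apart for each of the 3 genes. All 3 were higher in gCXC than in gAraRC, where 53.2% of tested genes were called higher. The means in gCXC were 8.81 times those in gAraRC for Amy13A (log2 change 2.95 ± 0.12, limma adjusted p = 6.44e-10), 4.51 times for Amy15A (2.20 ± 0.24, 2.85e-06) and 5.27 times for AmyR (2.32 ± 0.14, 1.71e-08). All 3 were also higher in gXlnRC than in gAraRC, where 49.1% of tested genes were called higher. The largest of these differences was that of Amy13A, whose mean in gXlnRC was 29.4 times that in gAraRC (log2 change 4.66 ± 0.12, limma adjusted p = 1.86e-11). With a pseudocount of 5, this log2 change of Amy13A was 4.01, and that of gCXC against gAraRC was 2.37. The gXlnRC means of Amy15A and AmyR were 7.84 and 4.80 times those in gAraRC (log2 changes 2.99 ± 0.24 and 2.18 ± 0.14, limma adjusted p = 2.25e-07 and 4.55e-08). With median-of-ratios scaling, lower genes made up 50.9% of the calls for gCXC against gAraRC (29.2% as deposited) and 50.3% for gXlnRC against gAraRC (32.4% as deposited).

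Between gCXC and gXlnRC, 2 of the 3 genes passed the test, as did 5349 of all 9125 tested genes in either direction. Both amylase genes were lower in gCXC than in gXlnRC, where 22.5% of tested genes were called lower. Amy13A was the farther apart, with a gCXC mean at 30.0% of the gXlnRC mean (log2 change -1.72 ± 0.12, limma adjusted p = 2.70e-07). Amy15A in gCXC was at 57.5% of the gXlnRC mean (log2 change -0.80 ± 0.24, limma adjusted p = 0.0117). AmyR did not pass the test between these strains, with a log2 change of 0.14 ± 0.14 (95% interval -0.17 to 0.45, limma adjusted p = 0.413), an interval that leaves room for a difference in either direction. Whether AmyR and the amylase genes differ from each other in this comparison was not tested. With median-of-ratios scaling, lower genes made up 49.6% of the calls here, against 38.4% as deposited.

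The order of the strain means was the same for both amylase genes. For Amy15A it was gAraRC, gCXC, gXlnRC and WT from low to high, and each neighbour in that order differed in the test. The means of Amy13A had this order too, but its gXlnRC and WT libraries overlapped and their difference did not pass the test. For AmyR the order was gAraRC, gXlnRC, gCXC and WT, and its gXlnRC and gCXC libraries overlapped and their difference did not pass the test.

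Together the 3 genes held 448 ± 50.2 reads in every 1000000 counted in genes in gCXC, 823 ± 82.5 in gXlnRC, 85.0 ± 25.0 in gAraRC and 1776 ± 245 in WT (SD, n = 3 each). The share of Amy15A alone was 224 ± 34.2 reads in every 1000000 in gCXC, 389 ± 52.9 in gXlnRC, 49.6 ± 20.1 in gAraRC and 1142 ± 153 in WT. Amy13A held 94.5 ± 7.53 reads in every 1000000 in gCXC, 315 ± 19.9 in gXlnRC, 10.7 ± 2.07 in gAraRC and 374 ± 55.1 in WT. AmyR held 130 ± 9.21 reads in every 1000000 in gCXC, 118 ± 19.1 in gXlnRC, 24.6 ± 3.21 in gAraRC and 260 ± 44.5 in WT. In gXlnRC the shares of the 2 enzyme genes were closer to each other than in WT.

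Ratios of 2 genes within a library do not depend on how that library is scaled, and they are given as descriptions without a test. The FPKM of Amy15A over that of Amy13A was 2.22, 2.20 and 2.56 in gCXC, 1.39, 1.12 and 1.14 in gXlnRC, 3.34, 4.62 and 5.35 in gAraRC, and 3.03, 3.06 and 2.96 in WT. It was lowest in gXlnRC, where the 2 amylase genes stood at nearly the same level, and highest in gAraRC, and no group overlapped another. The order of gAraRC and WT depends on the value added to FPKM. With 1 added, the mean log2 ratio was 1.95 in gAraRC and 1.59 in WT, and with 5 added it was 1.48 and 1.57. In WT the ratio hardly varied, at 3.02 ± 0.0502 (SD, n = 3), although the level of each gene varied by 14.7% (Amy13A) and 13.4% (Amy15A) between the same libraries.

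Amy13A relative to its activator gene moved in both directions. Amy13A over AmyR was 0.739, 0.696 and 0.703 in gCXC, 2.28, 2.99 and 2.66 in gXlnRC, 0.408, 0.391 and 0.476 in gAraRC, and 1.51, 1.24 and 1.5 in WT. All gXlnRC libraries lay above all WT libraries, and all gCXC and gAraRC libraries lay below them. Thus Amy13A exceeded AmyR in gXlnRC and WT and was below it in the other strains.

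Amy15A over AmyR was lower than in WT in each library of the 3 strains. The ratios averaged 1.66 ± 0.135 in gCXC, 3.19 ± 0.146 in gXlnRC, 1.90 ± 0.598 in gAraRC and 4.27 ± 0.413 in WT (SD, n = 3 each). The gCXC and gAraRC ranges, 1.53 to 1.8 and 1.36 to 2.54, overlapped.

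**Figure D3:**
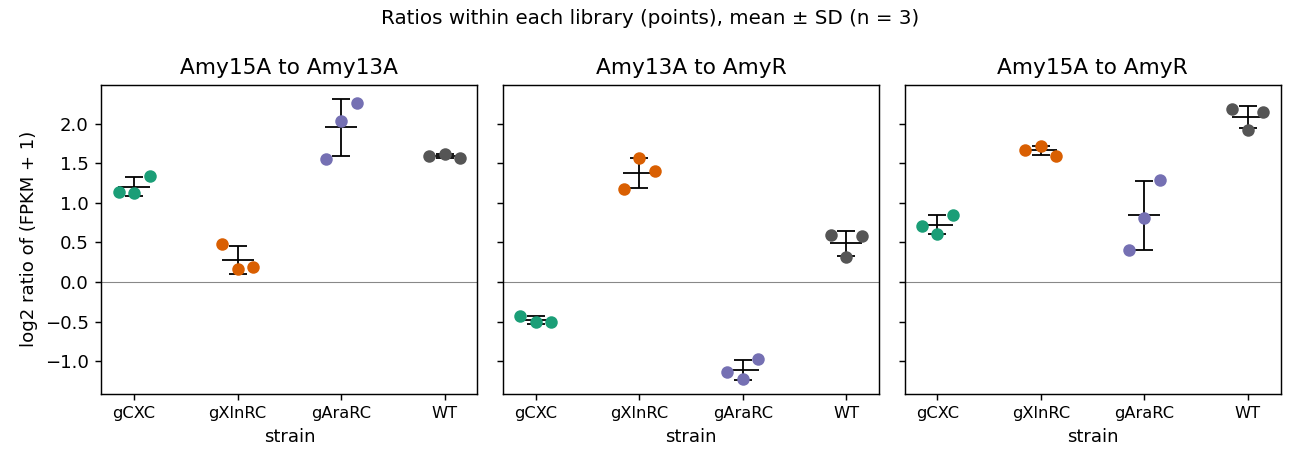
Log2 ratio of (FPKM + 1) of Amy15A to Amy13A, Amy13A to AmyR and Amy15A to AmyR within each library of gCXC, gXlnRC, gAraRC and WT. Points are libraries, bars the mean ± SD. The means of Amy13A to AmyR are -0.48, 1.38, -1.11 and 0.49 in that order of strains, so gXlnRC stands on the other side of WT from gCXC and gAraRC. With 1 added to each FPKM, the lowest gAraRC library for Amy15A to Amy13A (1.55) lies just below the WT libraries (1.56 to 1.61), whereas it lies above them in the plain FPKM ratio.

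Other genes had closely similar patterns over the 12 libraries. Likeness was measured as the root-mean-square difference between 2 genes of log2(FPKM + 1), each centred on its own mean over the 12 libraries, so that 0 means the same pattern at any level. The values were not scaled, so changes of the same shape but of unlike size also count as a difference. Genes with a mean of at least 10 FPKM were ranked. The 2 closest to each gene are named by locus tag, since the table does not pair tags with names. They were picked for their pattern in these libraries, so their levels are a description and no test is given.

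For Amy13A the closest were PDE_07206 (difference 0.38) and PDE_08784 (0.42). PDE_07206 stood at 67.4 ± 8.13 FPKM in gCXC, 153 ± 14.6 in gXlnRC, 9.21 ± 2.77 in gAraRC and 178 ± 63.4 in WT (SD, n = 3 each). The log2 changes of PDE_07206 against WT were -1.34 in gCXC, -0.17 in gXlnRC and -4.12 in gAraRC. PDE_08784 stood at 30.2 ± 3.66 FPKM in gCXC, 69.2 ± 15.3 in gXlnRC, 4.52 ± 1.41 in gAraRC and 90.3 ± 3.31 in WT. Those of PDE_08784 were -1.55 in gCXC, -0.40 in gXlnRC and -4.08 in gAraRC.

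For Amy15A the closest were PDE_03296 (0.37) and PDE_09377 (0.46), both more abundant than Amy15A. PDE_03296 stood at 320 ± 7.37 FPKM in gCXC, 389 ± 54.7 in gXlnRC, 66.5 ± 6.16 in gAraRC and 1138 ± 83.4 in WT. PDE_09377 stood at 471 ± 59.0 FPKM in gCXC, 788 ± 115 in gXlnRC, 152 ± 25.1 in gAraRC and 1503 ± 159 in WT. The log2 changes of PDE_03296 against WT were -1.82 in gCXC, -1.55 in gXlnRC and -4.08 in gAraRC, and those of PDE_09377 were -1.67, -0.94 and -3.31.

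For AmyR the closest were PDE_01280 (0.23) and PDE_08178 (0.28). PDE_01280 stood at 55.6 ± 2.18 FPKM in gCXC, 57.1 ± 5.57 in gXlnRC, 13.8 ± 0.560 in gAraRC and 100.1 ± 8.72 in WT. PDE_08178 stood at 19.5 ± 1.36 FPKM in gCXC, 15.7 ± 1.12 in gXlnRC, 4.18 ± 0.765 in gAraRC and 31.4 ± 4.36 in WT. The log2 changes of PDE_01280 against WT were -0.84 in gCXC, -0.80 in gXlnRC and -2.77 in gAraRC, and those of PDE_08178 were -0.65, -0.95 and -2.64. The mean of PDE_01280 was slightly higher in gXlnRC than in gCXC, whereas that of AmyR was slightly lower.

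The 3 genes were not each other's closest. Among 6616 genes ranked by likeness to Amy13A, Amy15A was at position 5 (difference 0.65) and AmyR at position 35 (0.95). Ranked by likeness to AmyR, Amy15A was at position 142 (0.60) and Amy13A at position 1568 (0.95). Ranked by likeness to Amy15A, AmyR was at position 11 (0.60) and Amy13A at position 15 (0.65).

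**Figure D4:**
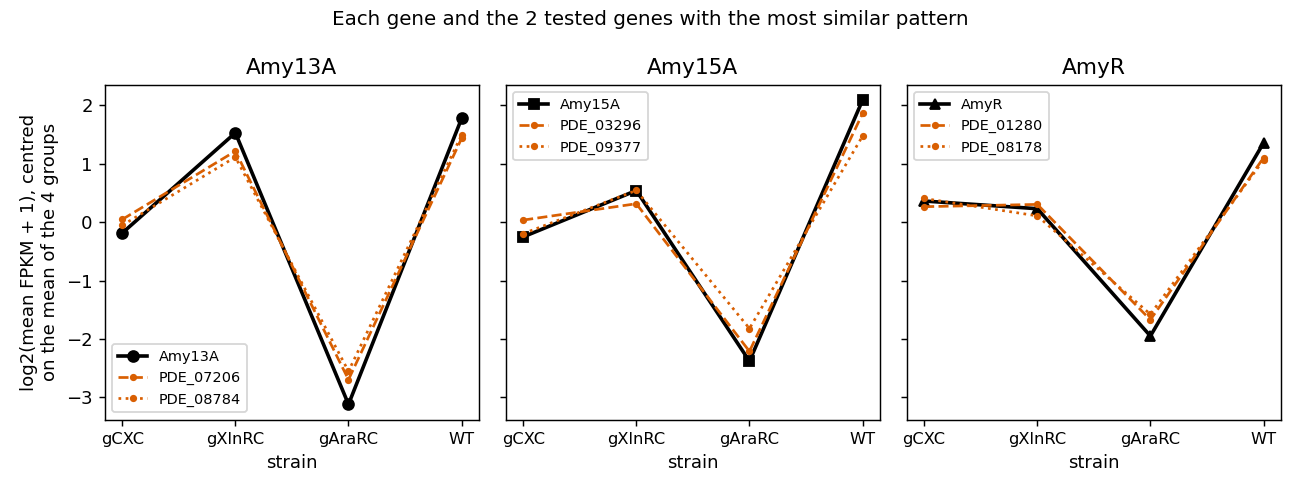
Group means as log2(mean FPKM + 1), centred on the mean of the 4 groups, for each of the 3 genes (black) and the 2 genes with the smallest difference from it (orange), in gCXC, gXlnRC, gAraRC and WT. The pairs were picked for following their gene, and the orange lines reach less deep in gAraRC than Amy13A, Amy15A and AmyR.

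Locus tags are numbered serially, so the 5 tags before and the 5 after each gene were also read. No coordinates were used, and neighbouring numbers were not checked to be neighbours on a chromosome. The counts of calls around each gene are to be read against all tested genes, of which 26.5% were called lower and 23.8% higher in gCXC, 35.5% and 19.1% in gXlnRC, and 57.0% and 19.1% in gAraRC. Around Amy15A, 8 of 10 tags were tested. Of these, 1 was called lower and 3 higher in gCXC, 0 lower and 3 higher in gXlnRC, and 3 lower and 2 higher in gAraRC. Calls at least 2-fold lower made up 5.06% of all tested genes in gCXC, 5.68% in gXlnRC and 15.3% in gAraRC. Of the same 8 tags, 0 changed at least 2-fold in any of the 3 strains. Their log2 changes in gAraRC ran from -0.93 to 0.72, against -4.54 for Amy15A.

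Around Amy13A, 6 of 10 tags were tested. Of these, 2 were called lower and 2 higher in gCXC, 4 lower and 1 higher in gXlnRC, and 4 lower and 1 higher in gAraRC, the last beside a background of 57.0% lower. The preceding tags PDE_01199 and PDE_01200 fell at least 2-fold in gCXC and gAraRC. Of all tested genes, 5.06% were called at least 2-fold lower in gCXC, 5.68% in gXlnRC and 15.3% in gAraRC. PDE_01200 stood at 24.7 ± 0.686 FPKM in gCXC, 60.8 ± 6.75 in gXlnRC, 31.9 ± 4.53 in gAraRC and 109 ± 10.6 in WT (SD, n = 3 each). Its log2 change was -2.09 in gCXC, -0.83 in gXlnRC and -1.74 in gAraRC (limma adjusted p = 1.47e-08, 3.67e-05 and 1.78e-08), and its mean was lowest in gCXC. PDE_01199 stood at 39.6 ± 0.812 FPKM in gCXC, 66.7 ± 8.13 in gXlnRC, 42.3 ± 8.59 in gAraRC and 120 ± 11.3 in WT. PDE_01198 fell in gAraRC, to 58.0 ± 12.5 FPKM, against 138 ± 18.2 FPKM in WT (log2 change -1.25, limma adjusted p = 3.57e-06). Other tags near Amy13A moved without it or against it, and they are named after their values were seen. In gXlnRC, where Amy13A was not called, PDE_01202 and PDE_01206 fell at least 2-fold (log2 changes -2.38 and -1.29, limma adjusted p = 0.0447 and 4.81e-04). PDE_01202 rose in gCXC (2.62, limma adjusted p = 0.0321), and PDE_01196 rose in gAraRC (1.21, limma adjusted p = 4.02e-07). The WT libraries of PDE_01202 varied widely, at 34.7 ± 53.5 FPKM, against 81.8 ± 30.8 in gCXC.

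Around AmyR, 10 of 10 tags were tested. In gCXC, 5 were called lower and 1 higher, where 26.5% and 23.8% of all tested genes were. In gXlnRC, 9 were called lower and 0 higher, where 35.5% of all tested genes were called lower, with a median log2 change of -0.41 against -0.10 over all tested genes. Among these 9, PDE_03961 and PDE_03962 changed least (both -0.20, limma adjusted p = 0.0403 and 0.0264). The counts around the 3 genes were not recomputed with other scalings. PDE_03965 was the one of the 9 that fell at least 2-fold, to 11 ± 0.872 FPKM in gXlnRC, against 25.7 ± 1.28 in WT (log2 change -1.16, limma adjusted p = 8.80e-06). Of all tested genes, 5.68% were called at least 2-fold lower in gXlnRC and 15.3% in gAraRC. In gAraRC, 5 were called lower and 3 higher, where 57.0% and 19.1% of all tested genes were, and the following tags PDE_03966, PDE_03967 and PDE_03968 fell at least 2-fold. PDE_03967 stood at 30.6 ± 1.22 FPKM in gAraRC and 105 ± 2.65 in WT (log2 change -1.75, limma adjusted p = 3.58e-10). The log2 changes of PDE_03966 and PDE_03968 in gAraRC were -2.05 and -1.39, against -3.30 for AmyR.

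**Figure D5:**
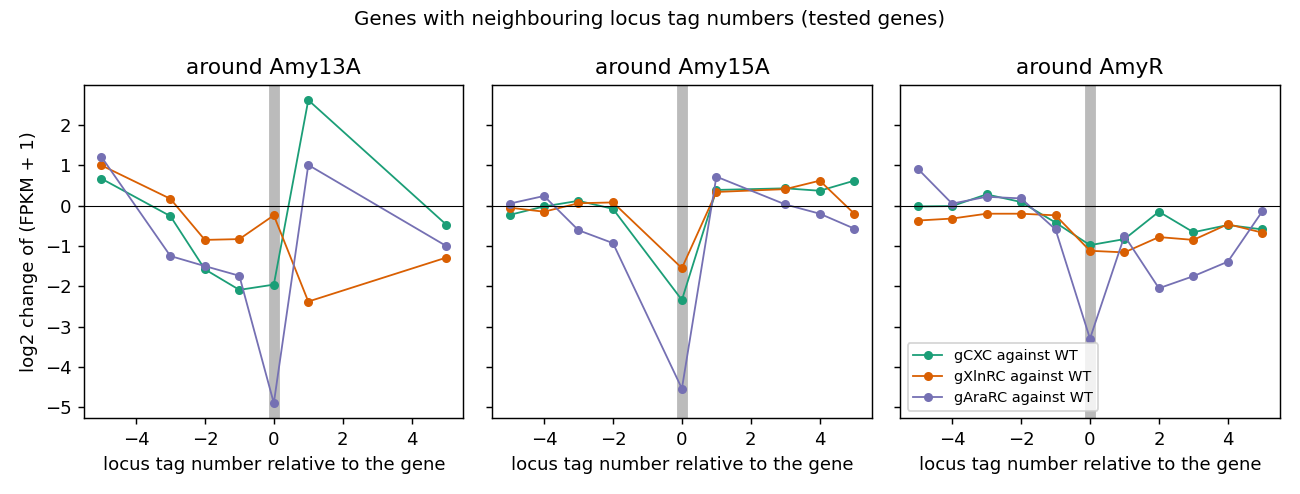
Log2 change against WT of tested genes by locus tag number relative to Amy13A, Amy15A and AmyR (at 0, grey band) in gCXC, gXlnRC and gAraRC. Around Amy15A the neighbours stay between -0.93 and 0.72. PDE_01199, PDE_01200 and PDE_01206 near Amy13A are below 0 in all 3 strains, as are PDE_03963 and PDE_03965 to PDE_03969 near AmyR. Not all of these changes were called (PDE_03966 in gCXC, -0.15, limma adjusted p = 0.286). The median of all tested genes was -0.0026 in gCXC, -0.10 in gXlnRC and -0.34 in gAraRC.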

How the data were processed

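The authors deposited 1 table of FPKM values, with 9979 genes and a column for each of 12 libraries. The tools listed in the submitters' processing notes, with no role given, are featureCounts 1.5.0-p1, HISAT2 2.0.0, DESeq2 and CASAVA 1.8. RNA came from mycelia, with mRNA capture and a stranded library kit, per the labels' protocols. No source used here gives the build, the annotation or the strand setting, so genes that overlap or have near-identical copies could share reads.

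Genes with at least 1 FPKM in at least 3 libraries (9125) were fitted with limma 3.58.1 (R 4.3.3) on log2(FPKM + 1), with 4 group means over all 12 libraries (8 residual degrees of freedom, trended prior variance). Two-sided p-values were adjusted (Benjamini-Hochberg) over all tested genes in each of 6 comparisons. The 3 comparisons against WT share the same WT libraries. A fold change on this scale understates the change of low genes.

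Read numbers were inferred from the FPKM steps, with lengths in steps of 3 nt. A length was accepted only where each value came within 0.1 of a whole read, so that 100% of values of tested genes did follows from the search. At the next length step 21.8% did. The limma and read recovery steps were tested on simulated data. Tables and plots used Python 3.11.15, pandas 2.3.3 and matplotlib 3.10.9.

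The 3 genes, the lists and the tests were chosen with earlier results of these data known. Beside the 3 genes, the text names the 2 genes closest to each in pattern. It also names those of the 5 preceding and 5 following locus tags that were called and changed at least 2-fold in the same strain and direction as the gene. Some other neighbouring tags are named after their values were seen. The reference gene table at hand (another assembly) held 0 of the 9979 tags, so no list of other starch genes was used and no sequence is shown.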

Additional observations from a re-analysis of the deposited data

Results flagged for a closer look

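The change of Amy13A against WT differed between strains in direct tests. Amy13A passed the test in gCXC but not in gXlnRC, and the difference of gCXC from gXlnRC itself was -1.72 on the log2 scale (limma adjusted p = 2.70e-07), with all 3 gCXC libraries below all 3 gXlnRC libraries. Amy13A also passed the test in gAraRC but not in gXlnRC, and the difference of gXlnRC from gAraRC was 4.66 (limma adjusted p = 1.86e-11), with all 3 gXlnRC libraries above all 3 gAraRC libraries.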

How the results depend on the processing

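Each of the 18 log2 changes of the 3 genes was recomputed with pseudocounts of 0.1 and 5, no filter, 3 other scalings, a replicate block, only the 2 groups compared, limma voom on the inferred reads, and without each library in turn. With no filter, a replicate block or only the 2 groups compared, a log2 change stays the same by construction. The same holds where the library left out is of a strain outside the comparison. In those settings only the test result could change, so they say nothing on direction. Of 378 such values, 0 changed direction and 376 stayed on the same side of the test. The other 2 were the change of Amy13A in gXlnRC: with the replicate number as a block (replicate block) it was -0.24 with limma adjusted p = 0.044, and leaving out 1 library gave -0.34 to -0.13, called only without WT replicate 1. The cause was not tested. Over all tested genes, replicate numbers showed no clear pairing. Same-numbered libraries of different strains had correlations of deviations from -0.09 to 0.17, and differently numbered ones from -0.19 to 0.21. Of 12 libraries, 5 were closest to their own number. Of the pairs compared, 18 shared a number and 36 did not, so some libraries would be closest to their own number without any pairing. Amy13A itself was highest in replicate 3 of each strain (229 FPKM in WT, 53.1 in gCXC, 179 in gXlnRC and 6.83 in gAraRC). Whether the numbers pair the values of this gene was not tested. The sizes moved too: Amy13A in gAraRC ran from -5.12 (voom) to -4.25 (pseudocount of 5), Amy13A in gXlnRC against gAraRC from 4.01 (pseudocount of 5) to 4.88 (voom), and in gCXC against gAraRC from 2.37 to 3.14 by the same settings. Amy15A in gAraRC ran from -4.82 (without gAraRC replicate 3) to -4.20 (median-of-ratios scaling). Amy15A between gCXC and gXlnRC had the weakest call that held in each alternative. Its limma adjusted p ran from 5.86e-04 (only the 2 groups compared, SE 0.12) to 0.0482 (without gCXC replicate 2, SE 0.27). The main fit, which pools the spread of all 4 strains, gave an SE of 0.24. All 126 counts of called genes stayed within 1.5 times the reported count. Of 60 group means, 2 moved by over 1 SD, both under another scaling. The means that left out 1 of the 3 libraries of a strain could not move that far, since the SD came from the same 3 values. Of 24 within-library log2 ratios, 2 moved by over 1 SD. With 3 libraries a group, an exact permutation test could not go below p = 0.1.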

Other observations

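The place of the 3 genes among all 9979 genes of a library, ordered from the highest FPKM, also moved between strains. Amy15A, the glucoamylase gene, was at positions 1301 to 1723 in gCXC, 664 to 884 in gXlnRC, 3223 to 5263 in gAraRC and 230 to 320 in WT. Amy13A, the alpha-amylase gene, was at positions 2912 to 3244 in gCXC, 905 to 999 in gXlnRC, 6860 to 7425 in gAraRC and 769 to 1037 in WT. AmyR was at positions 2213 to 2484 in gCXC, 2089 to 2737 in gXlnRC, 5417 to 5924 in gAraRC and 1116 to 1554 in WT. For Amy13A the gXlnRC positions lay within the WT range, and for Amy15A and AmyR they lay outside it.

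Libraries of the same strain shared deviations across the 3 genes. In every strain, 1 library had the lowest FPKM of that strain for each of the 3 genes. It was replicate 1 in WT and gAraRC, and replicate 2 in gCXC and gXlnRC. Near Amy13A, the tag PDE_01202 varied widely between libraries of the same strain, with a mean of 81.8 ± 30.8 FPKM in gCXC, 1.45 ± 0.352 in gXlnRC, 26.7 ± 14.1 in gAraRC and 34.7 ± 53.5 in WT (SD, n = 3 each). This tag was chosen for mention after its values were seen.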
